A study of Homo sapiens with 6 samples.

Results

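The constitutive proteasome subunits are the gene products that make up the standard proteasome. They were taken here as every entry with a symbol of the form PSMA, PSMB, PSMC or PSMD followed by a number, without PSMB8, PSMB9 and PSMB10, which replace catalytic subunits in the immunoproteasome. The rule found 36 genes among 25737 entries with 24462 different symbols, and each of the 36 was listed once in every library. No measured value entered the rule. They include 3 chaperones that assemble the base of the particle (PSMD5, PSMD9 and PSMD10). Subunits with symbols of another form, such as SHFM1 of the lid and the ubiquitin receptor ADRM1, are not among the 36 genes.

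The proteasome degrades proteins that carry ubiquitin chains. Its core particle is a stack of rings of alpha subunits (PSMA) and beta subunits (PSMB), with the proteolytic sites inside the beta rings. A regulatory particle caps the core. Its base holds a ring of ATPases (PSMC) that unfold substrates and pull them inward, together with scaffold and ubiquitin-binding proteins, and its lid holds a deubiquitinase that removes the chain. Cells that run short of proteasome activity are known to raise the transcription of its genes through NFE2L1, and stress-activated NFE2L2 binds related promoter elements.

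The study asked how the expression of respiratory epithelial cells changes with transforming growth factor beta 1 (TGF-β1), a cytokine that drives fibrosis. A549 is a lung carcinoma line and BEAS-2B an immortalized bronchial epithelial line, and both were used as wild type. Each line gave 3 libraries of total RNA, namely from untreated cells and from cells exposed for 48 h to either dose of TGF-β1, 1 or 5 ng/mL, in RPMI1640 medium with 1% serum. The lines were maintained with 10% serum, and no separate serum level during the 48 h was given for the untreated cells in the sources used here. The libraries hold QuantSeq reads, which come from the 3′ end of polyadenylated mRNAs, so that a count follows the number of molecules and not the length of the gene.

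With 1 library per condition, no difference between conditions could be set against a spread between cultures, and no test was run. Total counts were 4144476, 7841350 and 6101351 in A549 cells and 4252712, 4601813 and 4120624 in BEAS-2B cells at 0, 1 and 5 ng/mL. TGFBI, a matrix protein gene named for its induction by TGF-β, had 3585, 48552 and 34988 counts in A549 cells and 4298, 30715 and 23154 in BEAS-2B cells. Of the 6 epithelial markers in A549 cells, CDH1 had 640, 30 and 8 counts, EPCAM 49, 7 and 2, KRT19 41, 22 and 9 and KRT8 6112, 2785 and 1792, whereas KRT7 had 3473, 20603 and 19283, and KRT18 had 9719 to 14592. The BEAS-2B libraries held 0 to 2 counts of CDH1 and 0 of EPCAM, with 1063 to 2966 counts of KRT7, 175 to 372 of KRT8, 717 to 1418 of KRT18 and 5 to 46 of KRT19. The endothelial marker CDH5 was at 0 in all 6 libraries, PTPRC of leukocytes reached at most 4 counts, and CD14 at most 57.

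Values are given as scaled counts, that is, counts brought to a common effective library size (TMM scaling), the average one of these 6 libraries. Their log2, after 1 is added, is the ND value. Counts not called scaled are raw and also follow the depth of the library. The fold change (FC) is the ratio of scaled counts plus 1. A gene was said to rise or fall only when its FC was at least 2 and its ND value at least 7 (a scaled count of 127) in at least 1 of the libraries compared. Ratios are given with their exact 95% Clopper-Pearson interval, which covers counting error only. The comparisons of 1 and 5 ng/mL in a cell line share the same untreated library, and their values are therefore set side by side without a measure of their likeness.

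Of the 36 genes, 33 reached an ND value of 7 in at least 1 library. PSMA8 and PSMB11, forms of the core known from testis and thymus, had 0 counts in all 6 libraries. At these depths 0 allows at most 3 counts, a CPM value of 0.383 to 0.728. PSMD6, a lid subunit, stayed just below the minimum, with 105, 155 and 81 counts in A549 cells and 77, 102 and 66 in BEAS-2B cells. The 36 genes together took 0.662%, 0.694% and 0.733% of all counts in A549 cells and 0.597%, 0.653% and 0.649% in BEAS-2B cells. Their summed scaled count at 5 ng/mL was 1.28 times (1.26 to 1.30) that of the untreated cells in A549 and 1.19 times (1.17 to 1.21) in BEAS-2B. The size of these ratios rests on the TMM scaling, which their intervals do not cover, and the shares of all counts rose less. PSMD2 alone made up a large part of the gain. The A549 sum was 31790.9 untreated and 40548.5 at 5 ng/mL, with PSMD2 at 1082.1 and 5087.1. For BEAS-2B the sum was 28337.6 and 33701.0, with PSMD2 at 1661.9 and 5013.1. In bulk RNA of this kind, fewer cells expressing a gene and less of its RNA per cell cannot be told apart.

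The genes did not move as one block. At 5 ng/mL in A549 cells, 3 of 33 rose (PSMB6, PSMC3 and PSMD2) and 8 fell (PSMA1, PSMA3, PSMA5, PSMA6, PSMB3, PSMC2, PSMD5 and PSMD11), against 16.1% of all tested entries that rose and 17.1% that fell. In BEAS-2B cells, PSMD2 alone of 31 rose and 4 fell (PSMA1, PSMA3, PSMB3 and PSMD5), against 7.33% and 11.6% of entries. The shares of subunits past the FC limit, 9.09% up and 24.2% down in A549 cells and 3.23% and 12.9% in BEAS-2B cells, lay near or below these backgrounds apart from the falls in A549 cells.

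At 1 ng/mL in A549 cells, PSMC3, PSMD2 and PSMD3 rose and PSMA1, PSMA5, PSMD5, PSMD11 and PSMD14 fell, 3 and 5 of 33, against 10.9% and 12.6% of entries. Several values lay near the limit here, such as those of PSMA3 and PSMA6 (log2 FC -0.99 each) and PSMC3 (1.02). Under scaling to the library totals there were 1 rise and 7 falls, the DESeq2 size factors and a filter on low counts each gave 2 and 7, and upper quartile factors gave 3 and 7. In BEAS-2B cells at 1 ng/mL, PSMD2 rose and PSMD5 fell, 1 of 31 each, against 5.66% and 9.13%. Between the doses, PSMD14 was higher and PSMB3 lower past the limit at 5 than at 1 ng/mL in A549 cells, 1 of 30 each, against 1.61% and 1.79% of entries. In BEAS-2B cells 0 of 29 passed the limit between the doses in either direction, against 0.492% and 0.412%.

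The median log2 FC of the 33 expressed subunits stayed near 0 throughout. At 5 ng/mL it was 0.03 (SD 1.18 across genes) in A549 cells, beside 0.10 (SD 1.31) over 8159 expressed entries, and -0.02 (SD 0.79) in BEAS-2B cells, beside 0.00 (SD 0.99). At 1 ng/mL it was -0.06 beside 0.11 in A549 cells and 0.08 beside 0.00 in BEAS-2B cells. The 70 expressed mitochondrial ribosomal proteins, another set of subunits of a large complex, had medians of -0.08 and -0.18 at 5 ng/mL. For single subunits at 5 ng/mL, the counting interval of the ratio lay above 1 for 15 subunits and below 1 for 15 of 33 in A549 cells, where 44.7% and 37.0% of entries did so. In BEAS-2B cells it lay above 1 for 13 and below 1 for 12 of 31, beside 38.3% and 35.2%.

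**Figure D1:**
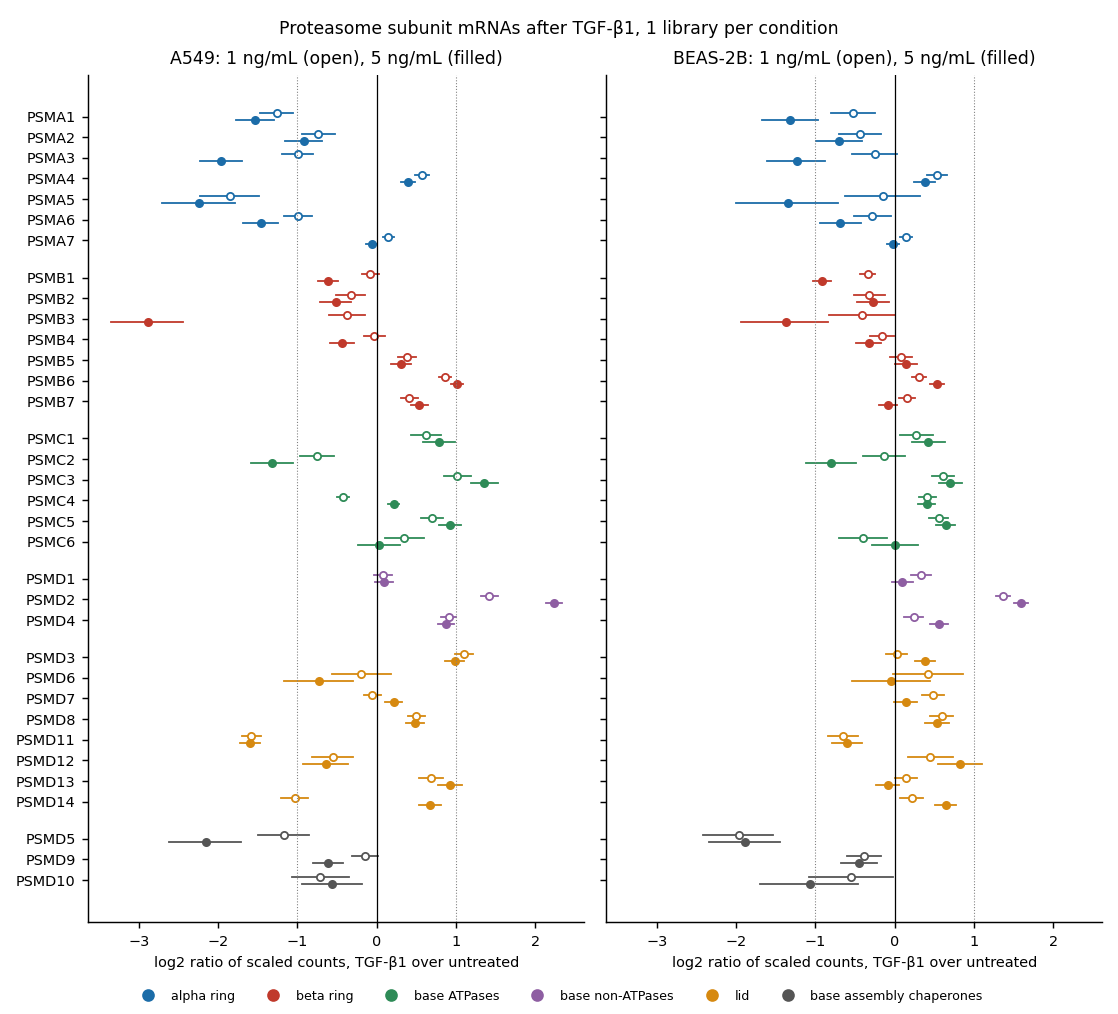
Log2 ratio of scaled counts (x axis) of each expressed subunit gene and PSMD6 (y axis) in A549 cells (left) and BEAS-2B cells (right), at 1 ng/mL (open) and 5 ng/mL TGF-β1 (filled) over untreated cells, colored by subcomplex; bars are exact 95% counting intervals and dotted lines mark a 2-fold change. PSMD2 lies furthest right at 5 ng/mL in both lines (2.23 and 1.59), and most alpha ring genes lie left of 0.

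The promoters of these genes were searched for the element that NFE2L1 and NFE2L2 are known to bind. The core of the antioxidant response element, TGACNNNGC, was searched on both strands of the RefSeq promoters of build GRCh38.p14, from 250 bases before to 50 bases after each start. It was present in 9 of 37 promoters of these genes (24.3%), beside 4687 of 35116 promoters (13.3%). Counted per gene, 9 of the 31 subunit genes with a promoter in the table held it (29%), beside 4384 of 27305 genes (16.1%). The 9 genes were PSMA4, PSMB3, PSMC4, PSMC5, PSMD1, PSMD3, PSMD5, PSMD9 and PSMD12. Matches in PSMB3, PSMD5, PSMA4, PSMD3, PSMC5 and PSMD12 are shown in 30-base windows, read 5′ to 3′ on the strand of the gene. The match is in capitals. Those in PSMC4, PSMD1 and PSMD9 and a further match in PSMD3 are not printed.

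PSMB3 at chr17:38752627-38752656, plus strand, 104 bases before the start:
PSMB3: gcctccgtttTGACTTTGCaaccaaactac
PSMD5 at chr9:120843037-120843066, minus strand, 134 bases before the start:
PSMD5: tggctacagtTGACACGGCcctaacggagg
PSMA4 at chr15:78540650-78540679, plus strand, 126 bases before the start:
PSMA4: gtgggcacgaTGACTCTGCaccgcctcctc
PSMD3 at chr17:39980760-39980789, plus strand, 37 bases before the start:
PSMD3: tcccctttgtTGACTCGGCcatcggcctgc
PSMC5 at chr17:63827654-63827683, plus strand, 57 bases before the start, with the match on the opposite strand:
PSMC5: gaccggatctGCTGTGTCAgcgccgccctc
PSMD12 at chr17:67366723-67366752, minus strand, 165 bases before the start:
PSMD12: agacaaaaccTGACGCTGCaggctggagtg

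PSMB3 and PSMD5 fell in both lines, PSMD3 rose in A549 cells at 1 ng/mL, and PSMA4, PSMC5 and PSMD12 did not pass the limit. No match was found for PSMD2 or PSMC3. Since a promoter was available for only 31 of the 36 genes, a gene without a match may not have been searched. A match is a description of the sequence and not evidence of binding.

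The alpha ring, which forms the gate of the core, held 4 of the 8 falls in A549 cells at 5 ng/mL. These were 4 of its 7 genes, beside 17.1% of all tested entries, and in BEAS-2B cells 2 of the 6 tested fell, beside 11.6%. The median log2 FC was -1.46 and -0.69. PSMA5 had scaled counts of 222.5, 61.8 and 47.2 in A549 cells and 92.6, 83.3 and 36.5 in BEAS-2B cells, in the order of doses kept for all genes. The A549 value thus fell already at 1 ng/mL (log2 FC -1.83) and again lay low at 5 ng/mL (-2.21), while PSMA5 in BEAS-2B cells was below the ND minimum in all libraries and its ratio of 0.395 (0.249 to 0.609) rests on 83 and 29 counts.

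PSMA3 had scaled counts of 555, 278 and 142 in A549 cells and 261, 219 and 111 in BEAS-2B cells. It fell at 5 ng/mL in both lines, with ratios of 0.257 (0.213 to 0.308) and 0.425 (0.329 to 0.545). At 1 ng/mL the log2 FC was -0.99 and -0.25. Its antisense partner PSMA3-AS1 had 182, 312 and 366 raw counts in A549 cells and 202, 272 and 313 in BEAS-2B cells. These are not scaled for depth, and the A549 library at 1 ng/mL held 7841350 counts in total, against 4144476 in the untreated library. Whether the counting kept the strands apart was not stated.

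PSMA1 had scaled counts of 535, 224 and 185 in A549 cells and 294.5, 205 and 118 in BEAS-2B cells. It fell at both doses in A549 cells (log2 FC -1.25 and -1.53) and at 5 ng/mL in BEAS-2B cells (-1.31). PSMA6 fell at 5 ng/mL in A549 cells (log2 FC -1.46, from 654 to 237 scaled counts), and its value was -0.68 in BEAS-2B cells.

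PSMA2 had values of -0.92 and -0.70 at 5 ng/mL and did not pass the limit. The ring was not uniform. PSMA4 had log2 FC values of 0.57 and 0.39 in A549 cells and 0.53 and 0.38 in BEAS-2B cells at 1 and 5 ng/mL, the highest of the ring at 5 ng/mL in both lines. PSMA7 had values of 0.15 and -0.06 in A549 cells and 0.15 and -0.02 in BEAS-2B cells.

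Because the summed count is led by the genes with most counts, the alpha ring as a whole shifted far less than its median gene. The summed scaled count at 5 ng/mL was 0.842 times (0.813 to 0.871) that of untreated A549 cells and 0.926 times (0.889 to 0.966) that of untreated BEAS-2B cells.

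In the beta ring, PSMB6 and PSMB3 lay at opposite ends. PSMB3, a structural subunit without a catalytic site, had scaled counts of 328, 253 and 44.5 in A549 cells and 127, 95.6 and 49.1 in BEAS-2B cells. It fell at 5 ng/mL in both lines, with ratios of 0.136 (0.0980 to 0.184) and 0.386 (0.261 to 0.560). Its untreated value in BEAS-2B cells lay at the ND minimum itself, on 114 counts. In A549 cells the step lay between the doses, since the log2 FC at 1 ng/mL was -0.37 and that of 5 over 1 ng/mL was -2.48, the largest difference between the doses among the 33 genes.

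Of the catalytic subunits, PSMB6 (caspase-like activity) had scaled counts of 2482, 4503 and 5007 in A549 cells and 2069, 2566 and 2994 in BEAS-2B cells. It rose at 5 ng/mL in A549 cells with a ratio of 2.02 (1.92 to 2.12), close to the limit, and its ratio in BEAS-2B cells was 1.45 (1.36 to 1.54). PSMB5 (chymotrypsin-like activity) had ratios of 1.24 (1.14 to 1.34) and 1.11 (1.00 to 1.22). PSMB7 (trypsin-like activity) had ratios of 1.45 (1.35 to 1.56) and 0.942 (0.872 to 1.02). No catalytic subunit fell.

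The other beta genes had values below 0 at 5 ng/mL without passing the limit: PSMB1 -0.61 and -0.92, PSMB2 -0.52 and -0.27, and PSMB4 -0.44 and -0.32 in A549 and BEAS-2B cells. The ring's median log2 FC was -0.44 and -0.27, while its summed scaled count was 1.28 times (1.24 to 1.32) that of untreated A549 cells and 0.942 times (0.911 to 0.974) that of untreated BEAS-2B cells. In A549 cells the median and the sum thus differed in direction.

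The immunoproteasome subunits occupy the places of the catalytic subunits in cells exposed to interferon, so their counts were read as a share of each pair. The share is one of counts and not of assembled protein. PSMB8 took 12.8% (10.8 to 15.0), 2.0% (1.43 to 2.72) and 0.425% (0.156 to 0.923) of the counts of PSMB8 and PSMB5 in the A549 libraries at 0, 1 and 5 ng/mL. In the BEAS-2B libraries it took 25.8% (23.3 to 28.4), 6.71% (5.20 to 8.49) and 5.56% (4.14 to 7.29). The share was thus lower in the treated libraries of both lines, beyond counting error.

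In A549 cells PSMB9 took 2.33% (1.74 to 3.05), 1.78% (1.48 to 2.13) and 0.827% (0.606 to 1.10) of its pair with PSMB6. The share in BEAS-2B cells was 18.6% (17.0 to 20.3), 4.84% (4.02 to 5.78) and 4.73% (3.93 to 5.64). The intervals of A549 cells at 0 and 1 ng/mL overlap. Between these libraries the scaled count was higher at 1 ng/mL for PSMB9 (59.1 to 81.8) and for PSMB6 (2482 to 4503). The PSMB9 count was high in untreated BEAS-2B cells (424) and low in all A549 libraries (51, 119 and 46). PSMB10 took 8.94%, 7.55% and 7.14% of its pair with PSMB7 in A549 cells and 9.55%, 11.0% and 6.13% in BEAS-2B cells, with overlapping intervals among the A549 libraries. PSMB8 and PSMB9 are listed in 8 entries each, whose counts were summed.

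**Figure D2:**
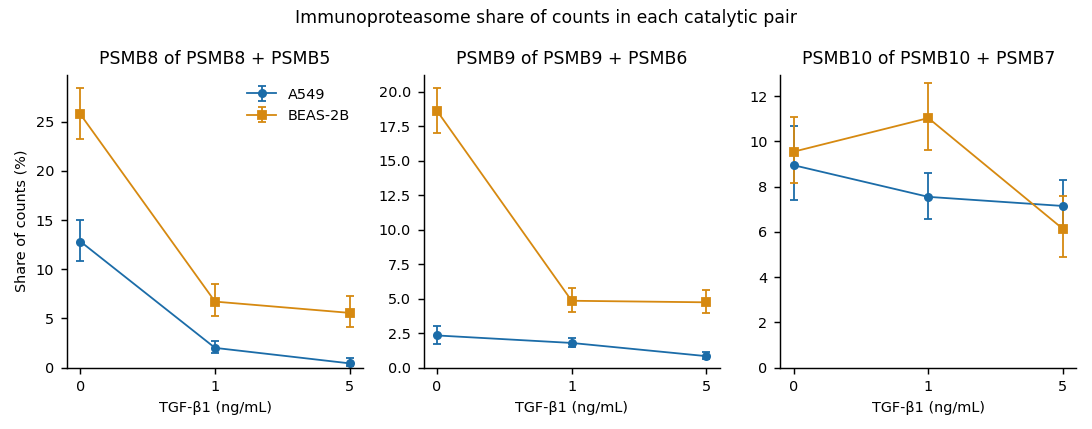
Share of counts (y axis, percent) that the immunoproteasome subunit took of each catalytic pair, at 0, 1 and 5 ng/mL TGF-β1 (x axis, doses equally spaced), in A549 cells (circles) and BEAS-2B cells (squares), 1 library per point, with exact 95% binomial intervals. The PSMB8 share is lower in the treated libraries of both lines (12.8% to 0.425% and 25.8% to 5.56% from 0 to 5 ng/mL), whereas that of PSMB10 lies between 6.13% and 11.0%.

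The base of the regulatory particle held the largest rise. PSMD2, a large scaffold subunit of the base, had scaled counts of 1082, 2899 and 5087 in A549 cells and 1662, 4291 and 5013 in BEAS-2B cells. It rose in all 4 comparisons with untreated cells, and its counts in each line were lowest without TGF-β1. The ratios were 2.68 (2.50 to 2.88) and 4.70 (4.39 to 5.04) at 1 and 5 ng/mL in A549 cells and 2.58 (2.43 to 2.74) and 3.02 (2.84 to 3.20) in BEAS-2B cells. Between the doses it was 1.76 times (1.69 to 1.83) higher at 5 ng/mL in A549 cells and 1.17 times (1.12 to 1.22) higher in BEAS-2B cells, both short of the limit.

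The other base subunits without ATPase activity moved less. PSMD4, a ubiquitin receptor, had log2 FC values of 0.91 and 0.88 in A549 cells and 0.24 and 0.56 in BEAS-2B cells, and PSMD1, a scaffold, had 0.08 and 0.09 in A549 cells and 0.34 and 0.10 in BEAS-2B cells. Their summed scaled count with PSMD2 was 2.45 times (2.35 to 2.55) that of untreated A549 cells and 2.03 times (1.94 to 2.11) that of untreated BEAS-2B cells at 5 ng/mL.

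Among the 6 ATPases, PSMC3 had scaled counts of 411, 833 and 1053 in A549 cells and 785, 1198 and 1277 in BEAS-2B cells. It rose at both doses in A549 cells (log2 FC 1.02 and 1.35), and its values in BEAS-2B cells were 0.61 and 0.70. PSMC2 went the other way in the same ring, with scaled counts of 412.5, 245 and 165 in A549 cells and 285.5, 260 and 164 in BEAS-2B cells. It fell at 5 ng/mL in A549 cells with a ratio of 0.400 (0.333 to 0.480) and its ratio in BEAS-2B cells was 0.574 (0.461 to 0.711).

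PSMC5 and PSMC1 had values of 0.93 and 0.78 at 5 ng/mL in A549 cells and 0.64 and 0.42 in BEAS-2B cells. PSMC4 was unlike them in A549 cells, where its log2 FC was -0.42 at 1 ng/mL and 0.21 at 5 ng/mL. PSMC6 had values of 0.03 and 0.01 at 5 ng/mL, with scaled counts of 241, 306 and 246 in A549 cells and 233, 177 and 234 in BEAS-2B cells. The median log2 FC of the ring was 0.50 and 0.41 and its summed ratio 1.35 (1.30 to 1.40) and 1.37 (1.32 to 1.44).

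The lid showed differences between the lines and between the doses. PSMD11, a lid scaffold, had scaled counts of 1847, 616 and 611 in A549 cells and 688, 438 and 455 in BEAS-2B cells. It fell at both doses in A549 cells, by 1.58 and 1.60 on the log2 scale, and the treated libraries of A549 cells lay at the level of the BEAS-2B libraries. In BEAS-2B cells the values were -0.65 and -0.60.

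PSMD14, the deubiquitinase of the lid, had scaled counts of 731, 358 and 1162 in A549 cells and 850, 986 and 1325 in BEAS-2B cells. In A549 cells it fell at 1 ng/mL (ratio 0.490, 0.435 to 0.551) and had a ratio of 1.59 (1.44 to 1.75) at 5 ng/mL, so that the library at 1 ng/mL lay lowest. The ratio of 5 over 1 ng/mL was 3.25 (2.93 to 3.60). This course rests on 1 library, and it was not seen in BEAS-2B cells, where the log2 FC was 0.21 and 0.64; the difference between the lines was not tested.

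PSMD12 had scaled counts of 266.5, 181 and 171 in A549 cells and 205, 280 and 363 in BEAS-2B cells. Its ratios at 1 and 5 ng/mL were 0.681 (0.568 to 0.816) and 0.640 (0.525 to 0.780) in A549 cells but 1.37 (1.12 to 1.66) and 1.77 (1.46 to 2.14) in BEAS-2B cells. Of the 33 genes, it was the only one with both ratios on one side of 1 in one line and both on the other side in the other line, with all 4 intervals apart from 1. None of these values passed the FC limit of 2. The last 300 bases of its transcript have a GC content of 27.7%, and with the trend of all entries over GC content there removed, its log2 FC at 5 ng/mL in A549 cells was -0.20 in place of -0.64.

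PSMD3, a lid scaffold, rose at 1 ng/mL in A549 cells with a ratio of 2.15 (1.99 to 2.32) and had a ratio of 1.98 (1.82 to 2.14) at 5 ng/mL, just short of the limit. In BEAS-2B cells its ratios were 1.02 (0.930 to 1.11) and 1.30 (1.19 to 1.42). PSMD8 had values of 0.48 and 0.53 at 5 ng/mL in the lines, PSMD7 0.21 and 0.14, and PSMD13 0.93 and -0.09. For the lid the log2 FC had medians of 0.48 and 0.38 in these lines, and its summed ratio was 1.17 (1.14 to 1.21) and 1.20 (1.15 to 1.25). The lid subunit SHFM1, outside the symbol rule, is not in these values. Its scaled counts were 1500 without TGF-β1 and 679 at 5 ng/mL in A549 cells, and 820 and 645 in BEAS-2B cells.

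The chaperones that assemble the base carry PSMD names but are not part of the finished particle. PSMD5 had scaled counts of 222.5, 98.9 and 49.9 in A549 cells and 246.5, 63.0 and 66.8 in BEAS-2B cells, and all treated libraries lay below both untreated ones. It fell in all 4 comparisons, with ratios of 0.445 (0.356 to 0.555) and 0.224 (0.163 to 0.304) in A549 cells and 0.256 (0.187 to 0.344) and 0.271 (0.197 to 0.367) in BEAS-2B cells. Its antisense partner PSMD5-AS1 had 50, 92 and 39 raw counts in A549 cells and 33, 15 and 19 in BEAS-2B cells, not scaled for depth.

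PSMD9 had log2 FC values of -0.61 and -0.45 at 5 ng/mL. PSMD10, which is known also as gankyrin, had -0.56 in A549 cells; in BEAS-2B cells it was below the ND minimum, with 78, 53 and 33 counts. The summed scaled count of the 3 chaperones at 5 ng/mL was 0.558 times (0.502 to 0.621) that of untreated A549 cells and 0.561 times (0.492 to 0.638) that of untreated BEAS-2B cells.

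**Figure D3:**
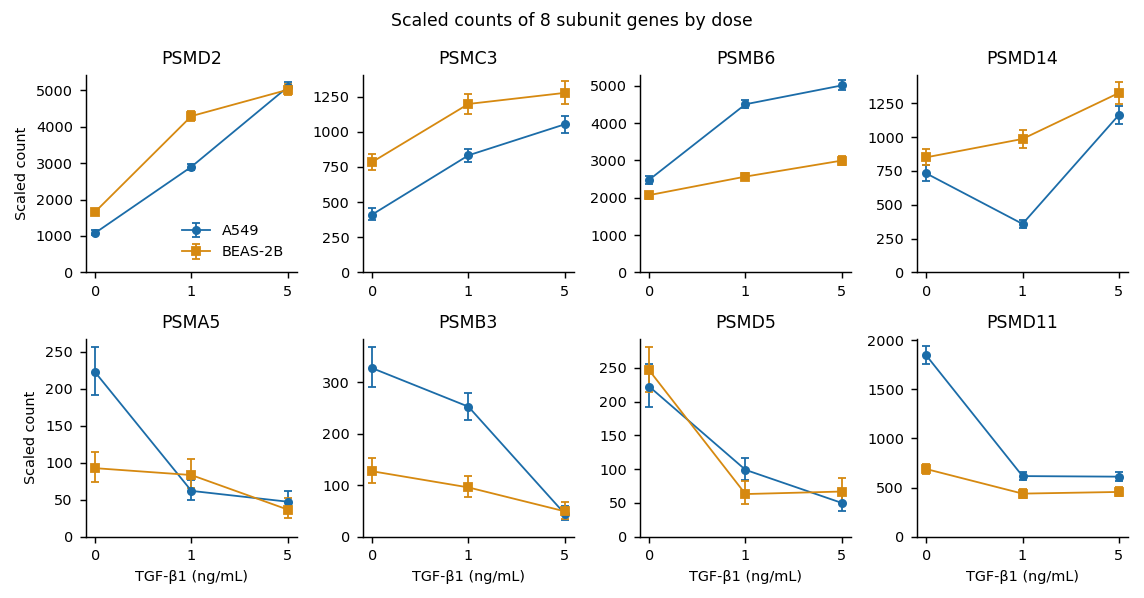
Scaled counts (y axis, from 0) of 8 subunit genes at 0, 1 and 5 ng/mL TGF-β1 (x axis, doses equally spaced) in A549 cells (circles) and BEAS-2B cells (squares), 1 library per point, with exact 95% Poisson intervals that cover counting error only. PSMD2 is higher and PSMD5 lower in every treated library than in the untreated ones, and PSMD14 in A549 cells is lowest at 1 ng/mL (358).

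The responses of the lines, which share no library, were set side by side gene by gene. At 5 ng/mL, 30 of the 33 subunits (90.9%) had log2 FC values of the same sign in A549 and BEAS-2B cells, beside 70.9% of 8159 entries. Pearson's r across the 33 genes was 0.89 and Spearman's rho 0.83, beside 0.57 and 0.57 over all entries. At 1 ng/mL, 28 had the same sign (84.8%, beside 64.9%), with r of 0.64 and rho of 0.64, beside 0.45 and 0.44. These values describe 33 genes of 1 library pair per line. The genes share the control library of their line and the scaling and are not independent replicates.

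Untreated BEAS-2B cells were compared with untreated A549 cells. PSMA3, PSMA5, PSMB3, PSMC4 and PSMD11 were lower in BEAS-2B cells past the limit and 0 were higher, of 33 tested, against 18.1% of entries lower and 18.9% higher. The largest differences were those of PSMD11 (log2 FC -1.42), PSMB3 (-1.36) and PSMA5 (-1.26). In the other direction the largest were PSMC3 (0.93), PSMB1 (0.80) and PSMD13 (0.75), which did not pass the limit. The median of the 33 genes was -0.20, beside 0.05 over all entries. This comparison uses the untreated A549 library, as the comparisons with TGF-β1 in A549 cells do.

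Other genes of the ubiquitin-proteasome pathway were taken from lists of 37 genes found in the tables. At 5 ng/mL, 5 of 34 tested rose and 3 fell in A549 cells, with a median log2 FC of 0.21, beside 16.1% and 17.1% of all tested entries and a median of 0.10 over the 8159 expressed entries. In BEAS-2B cells 0 of 32 rose and 3 fell, with a median of 0.06, beside 7.33% and 11.6% of entries and a median of 0.00. None of these shares was above that over all tested entries. The genes that rose in A549 cells included RPS27A (1.31), the shuttle factor UBQLN4 (1.26) and the ubiquitin receptor ADRM1 (1.20). RPS27A encodes ubiquitin fused to a ribosomal protein. With the trend of all entries over the GC content of the transcript removed, ADRM1 had 0.44 and did not pass the limit. PSMB8 (-4.57), UBQLN2 (-1.30) and SHFM1 (-1.14), a small lid subunit, fell.

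In BEAS-2B cells the genes that fell were PSMB8 (-2.40), PSMB9 (-1.66) and PSME1 (-1.09), a subunit of the core activator that interferon induces. Its partner PSME2 had 0.12, and in A549 cells PSME1 had -0.09 and PSME2 0.45. At 1 ng/mL the lists held 2 rises (ADRM1 among them) and 3 falls (PSMB8, SHFM1 and UBQLN2) of 34 tested in A549 cells, beside 10.9% and 12.6% of entries. In BEAS-2B cells they held 0 rises and 3 falls (PSMB8, PSMB9 and PSME1) of 32, beside 5.66% and 9.13%. POMP, the chaperone that completes the core, had 0.57 and 0.54 at 5 ng/mL.

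NFE2L1 had scaled counts of 415, 350 and 345 in A549 cells and 658, 628 and 666 in BEAS-2B cells, with log2 FC values of -0.27 and 0.02 at 5 ng/mL. NFE2L2 had scaled counts of 472, 261 and 249.5 in A549 cells and 378, 200 and 232 in BEAS-2B cells, with values of -0.92 and -0.70. Neither passed the limit at either dose. The mRNA level of these factors does not show their activity, which is known to be set by processing and degradation of the protein.

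The change of a subunit's mRNA went with the GC content of its transcript. The GC content was read from GENCODE transcripts, which all 33 expressed subunits and 96.0% of expressed entries matched. At 5 ng/mL in A549 cells Pearson's r across the subunits was 0.54 and Spearman's rho 0.62, beside 0.24 and 0.30 over 7832 entries. In BEAS-2B cells they were 0.46 and 0.46, beside 0.08 and 0.09. At 1 ng/mL r was 0.64 and 0.41 in these lines.

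Of the 17 subunits with a GC content of at most 48.3%, 12 had log2 FC values below 0 at 5 ng/mL in A549 cells (median -0.64). Of the 16 above it, 12 had values above 0 (median 0.66). Over all entries the medians on these sides were -0.16 and 0.37. In BEAS-2B cells the medians were -0.68 and 0.39, beside -0.05 and 0.05 over all entries. The alpha genes that fell had GC contents of 37.2% (PSMA5), 40.7% (PSMA3), 44.5% (PSMA6) and 46.2% (PSMA1), and PSMD2 had 54.3% and PSMC3 56.2%. PSMB3 stood apart, with 53.6% and the largest fall in A549 cells.

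With the trend of all entries over GC content removed, an alternative added after seeing the data, the log2 FC at 5 ng/mL in A549 cells was -1.89 for PSMA5, -1.64 for PSMA3, -1.29 for PSMA1, -2.85 for PSMB3, -1.82 for PSMD5 and 2.04 for PSMD2. That of PSMB6 became 0.82, below the limit. The values of PSMC3 (0.82), PSMD3 (0.79), PSMD5 (-0.88) and PSMD14 (-0.84) at 1 ng/mL in A549 cells no longer passed it. Taking the GC content of the last 300 bases instead, nearest to where the reads lie, gave 0.63 for PSMC3 at 5 ng/mL in A549 cells, also below the limit, and 1.89 for PSMD2. In BEAS-2B cells at 5 ng/mL, removing the trend over the GC content of the whole transcript gave 1.59 for PSMD2, -1.35 for PSMB3 and -1.75 for PSMD5, and removing that over the last 300 bases gave -1.45 for PSMB3 and -1.87 for PSMD5, with PSMD2 at 1.5. Of the pathway genes in A549 cells, ADRM1 (GC content 64.2%) passed the limit at neither dose with either trend removed. At 5 ng/mL it had 0.44 for the whole transcript and 0.48 for the last 300 bases. At 1 ng/mL these were 0.33 and 0.45. In this order UBQLN2 had -1.11 and -0.86 at 5 ng/mL and -0.93 and -0.78 at 1 ng/mL. UBQLN4 had 1.02 and 0.92 at 5 ng/mL. RPS27A (1.5 and 1.55) and PSMB8 (-4.76 and -4.91) stayed past the limit there. SHFM1 had no GC value. The part of GC content in the remaining pattern among the subunits was not tested.

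**Figure D4:**
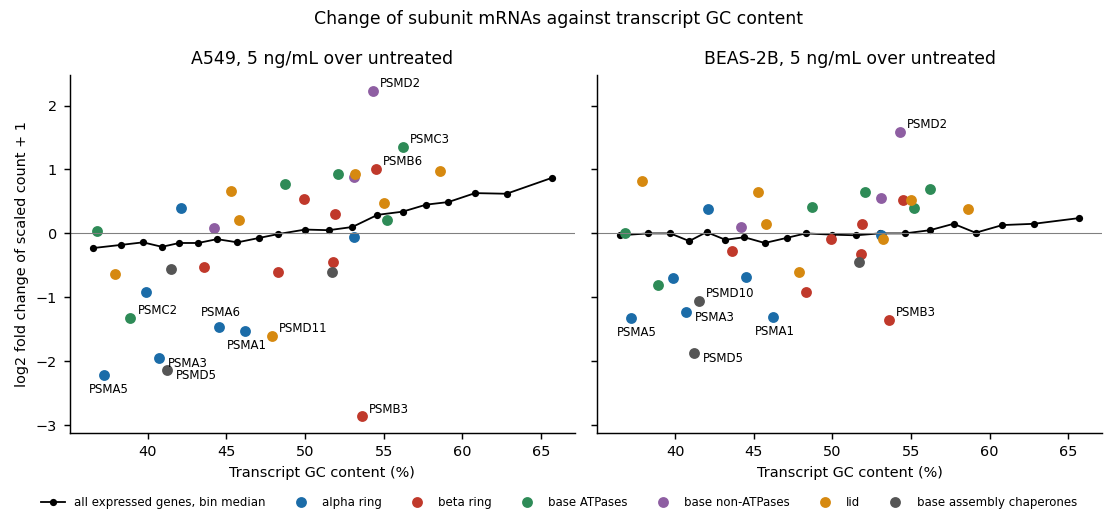
Log2 fold change at 5 ng/mL TGF-β1 over untreated cells (y axis) against the GC content of the transcript (x axis, percent) for the 33 expressed subunit genes, colored by subcomplex, in A549 cells (left) and BEAS-2B cells (right); the black line joins the medians of all expressed entries in 20 bins of GC content, and genes with a change of at least 1 are named. Subunit genes with a low GC content lie mostly below 0 and those with a higher one mostly above, with PSMB3 (53.6%) far below 0.

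Reads that fit a copy elsewhere could not be followed. GENCODE names 30 pseudogenes after 11 of these genes, 13 of them after PSMC1, and 0 of the 30 are listed in the count tables. Whether their reads were dropped or counted for the parent gene was not given in the sources used here, so that the values of PSMC1, PSMA2, PSMA3, PSMA6, PSMB3, PSMB7, PSMD4, PSMD7, PSMD8, PSMD10 and PSMD12 are uncertain to that extent.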

How the data were processed

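Total RNA of A549 cells and of BEAS-2B cells was used, each at TGF-β1 doses of 0, 1 and 5 ng/mL, with 1 library per condition and groups taken from the sample labels. The authors made the libraries with a QuantSeq 3′-mRNA FWD kit. The values the authors deposited are whole-number counts per gene symbol, not normalized, for 25737 entries. The submitters' processing notes name Bowtie2, bedtools and build hg19, and the study names ExDEGA. Tool versions, annotation, filters and the use of strand are not given in the sources used here. Raw total counts ranged from 4120624 to 7841350, and since the reads carry no molecular identifiers and may repeat a molecule, intervals cover counting error only.

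Counts were scaled with TMM factors (edgeR 4.0.16, R 4.3.3) over all entries and 6 libraries. An FC of at least 2 with a pseudocount of 1 and an ND value of at least 7, after the study's own limits, made a call. An ND value of 7 is a scaled count of 127, or 101 to 185 raw counts. Background percentages are over entries that reach it in at least 1 of the libraries compared, and medians over the 8159 entries that reach it in any of the 6. GC content came from GENCODE release 29 (GRCh38), to which 21874 symbols matched, and promoters from RefSeq; since the counts rest on hg19, no gene coordinates were taken from these for the counted intervals. The remaining steps ran in Python 3.11.15 (scipy 1.17.1, pandas 2.3.3, numpy 2.4.6, and matplotlib 3.10.9 for figures). The fold changes, calls, counting intervals and removal of a GC trend were tested on simulated data. The TMM scaling and the other steps were not part of that test.

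The members and lists were chosen with earlier results of these data known. Genes were named by a rule: those past the limit, the extremes of each subcomplex and of the untreated lines, the catalytic subunits, genes with opposite directions, and pathway genes past the limit with chosen regulators. Other members are given so that each is accounted for. Some genes of the marker and pathway lists are counted but not reported here by name. There were 14 alternatives and 2 added after seeing the data.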

Additional observations from a re-analysis of the deposited data

Results flagged for a closer look

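PSMD12, a lid subunit, stood out because its ratios lay on opposite sides of 1 in the cell lines at both doses, with all 4 counting intervals apart from 1. The log2 FC at 5 ng/mL in BEAS-2B cells (0.82) minus that in A549 cells (-0.64) was 1.46. The scaled counts at 0, 1 and 5 ng/mL were 205, 280 and 363 in BEAS-2B cells and 266.5, 181 and 171 in A549 cells. The raw counts were 184, 249 and 288 in BEAS-2B cells and 230, 264 and 188 in A549 cells. The A549 ratio below 1 at 1 ng/mL thus rests on the scaling for depth. With the trend over GC content of the last 300 bases removed, the A549 value was -0.20. With 1 library per condition, the difference between the lines was not tested.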

How the results depend on the processing

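Of the values for single genes, 439 moved by less than their counting interval under the alternatives, 45 moved further and 0 changed sign from a called value. The moves were not spread evenly. Of 44 values each, 16 moved further under total counts, 12 with the trend over transcript GC removed and 17 with that over the last 300 bases removed. Under each other setting that bears on a fold change, the 44 values stayed within their intervals. Counts of genes past the limit stayed within 1.5 times in 185 cases and moved further in 37, and medians stayed in 74 and moved in 2. Total counts lowered the median log2 FC of all entries by 0.16 at 1 ng/mL and 0.20 at 5 ng/mL in A549 cells and by 0.12 and 0.11 in BEAS-2B cells. The medians of the subunits were then -0.24 and -0.22 in A549 cells, a shift of the same kind, and 1 subunit rose at 1 ng/mL. An FC limit of 1.5 gave 8 rises and 10 falls in A549 cells at 1 ng/mL, 9 rises at 5 ng/mL and 3 rises and 2 falls between the doses; in BEAS-2B cells it gave 3 and 2, 5 and 9, and 3 falls between the doses, and 5 and 11 between the untreated lines. An FC limit of 3 gave 0 rises and 1 fall, then 1 rise and 5 falls in A549 cells, 0 rises at 1 ng/mL and 1 fall at 5 ng/mL in BEAS-2B cells, and 0 falls between the untreated lines. With the ND minimum required in both libraries, the falls were 3 and 5 in A549 cells, 0 between the doses, and 0 at both doses in BEAS-2B cells, since a gene that falls leaves the range. An ND minimum of 8 gave 3 falls at 1 ng/mL and 0 between the doses in A549 cells and 0 and 2 in BEAS-2B cells. Libraries thinned to the smallest total, an ND minimum of 6 and removal of the trend over GC of the transcript end each gave 1 fall between the doses in BEAS-2B cells. Thinning gave a PSMB9 share of 1.46% in A549 cells at 1 ng/mL. Removing the trend over transcript GC, or over GC of the last 300 bases, gave 1 rise and 3 falls in A549 cells at 1 ng/mL, and the latter 1 rise at 5 ng/mL; both were added after seeing the data. Where no construction is named, the cause was not tested.

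No paired analysis was possible because each condition has 1 library and the labels carry no replicate numbers, and leaving out a library leaves no comparison. Depth limits the genes near the ND minimum: PSMA5, PSMB3, PSMD5 and PSMD10 rest on 29, 39, 53 and 33 counts in the treated library where each is lowest.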
